A study of Homo sapiens with 14 samples.

Results

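The replication-dependent histone genes encode the bulk of the histone proteins that package newly copied DNA. Of 19974 protein-coding genes that RefSeq places on chromosomes 1 to 22 and X of GRCh38.p14, the 70 examined here were those whose symbols begin with H2AC, H2BC, H3C or H4C followed by a number, together with H1-1 to H1-6. They comprised 6 linker histone H1 genes, 17 H2A genes, 19 H2B genes, 13 H3 genes and 15 H4 genes. The largest set, 53 genes, lay in the cluster between 26 and 28 Mb of chromosome 6, in 3 stretches: H1-1 to H4C8 (32 genes over 268.5 kb), H2BC11 to H2AC12 (5 genes over 15.2 kb) and H2BC13 to H2BC17 (16 genes over 86.4 kb). On chromosome 1, 11 genes lay between 149.8 and 149.9 Mb (band q21), and H2AC25 and H2BC26 lay at 228.5 Mb (band q42). Of the others, H2AC1 and H2BC1 lay at 25.7 Mb of chromosome 6, H4C16 on chromosome 12 and H2BC12L on chromosome 21.

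These genes are short and typically lack introns, and their transcripts end in a stem-loop rather than a poly(A) tail. They are transcribed mainly in S phase, at a nuclear structure called the histone locus body, which is organised by NPAT and holds the factors that cut the 3′ ends of histone mRNA. Many H2A and H2B genes are arranged as divergent pairs that share a short stretch of promoter. SATB1 is a DNA-binding protein of T lineage cells that prefers AT-rich DNA and organises chromatin folding, CTCF is the protein of insulators and loop anchors, H3K27ac marks active promoters and enhancers, and Matrin 3 is a protein of the nuclear matrix.

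The series mapped these 4 targets by CUT&Tag, in which an antibody brings the Tn5 transposase to its target so that the surrounding DNA is cut and tagged for sequencing. All cells were Jurkat, an established human line from a T cell leukaemia, and the 12 libraries other than Matrin 3 were labelled as carrying a lentiviral shRNA. The groups were SATB1 in shCtrl (genotype control, 2 libraries), H3K27ac in shCtrl (2) and in shSATB1 (SATB1 knockdown, 2), CTCF in shCtrl (3) and in shSATB1 (3), and Matrin 3 (2, whose labels name no shRNA). SATB1 was not mapped in shSATB1 in the libraries used here, so its loss at these genes was not measured. The labels do not say whether replicates were separate cultures. The p-values below therefore compare the arms with a spread between libraries that could be wholly technical.

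For each library there was 1 list of peaks, with 14695 to 32540 peaks except for Matrin 3 replicate 2, which held 2105. Sequencing depth is unknown. The CTCF lists of the arms differed in length, with 31141 to 32540 peaks in shCtrl and 14695 to 20284 in shSATB1, and the weakest peak called had a total signal of 13359 to 14792 in shCtrl against 6017 to 7332 in shSATB1. The SATB1 lists shared 6001 exact peak starts, 40.8% of the shorter list, where the highest of the other 90 pairs of lists shared 1.03%. At the histone genes, 16 of 36 peaks shared their start, so the SATB1 lists were counted as 1 sample and no spread is given for SATB1. H3K27ac was found in both shCtrl lists at 12 of 14 T cell markers, among them CD3E at the 99.9 and 99.8 percentiles, at 2 of 6 B cell markers (CD79A and BLK), and at 0 of 6 myeloid and 0 of 4 erythroid markers. Of all protein-coding genes, 38.8% had it in both shCtrl lists.

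The promoters below show what the genes described here look like in sequence. Each line gives the 250 bases before the annotated start, or the whole of the shorter stretch between divergent starts for H2BC11, on the strand of the gene from 5′ to 3′, from RefSeq GRCh38.p14. Capitals mark matches on either strand to the letters TATAAA (the TATA box), CCAAT, ATTTGCAT (the octamer bound by POU2F1), GGTCCG (an element of H4 promoters), TTTCCCGC (an E2F element) and the core of the CTCF motif. H2BC11 (chr6:27132796-27133042, minus strand) is the stretch shared with H2AC11; near its 5′ end a match to the TATA box on each strand overlaps the other. H4C2 (chr6:26027284-26027533, minus) and H2AC21 (chr1:149887966-149888215, minus) are shown for their CTCF, H1-4 (chr6:26156079-26156328, plus) for its SATB1, and H4C11 (chr6:27823842-27824091, plus) and H4C12 (chr6:27831561-27831810, minus) because they are near-copies. H2BC3 (chr6:26043714-26043963, minus) and H4C7 (chr6:26246997-26247246, minus) stand for members without SATB1.
H2BC11: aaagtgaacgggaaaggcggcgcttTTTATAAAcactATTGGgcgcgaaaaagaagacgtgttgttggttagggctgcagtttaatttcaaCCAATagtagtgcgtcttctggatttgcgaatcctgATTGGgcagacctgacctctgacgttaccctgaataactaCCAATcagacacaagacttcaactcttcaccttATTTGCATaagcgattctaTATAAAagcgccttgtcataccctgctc
H4C2: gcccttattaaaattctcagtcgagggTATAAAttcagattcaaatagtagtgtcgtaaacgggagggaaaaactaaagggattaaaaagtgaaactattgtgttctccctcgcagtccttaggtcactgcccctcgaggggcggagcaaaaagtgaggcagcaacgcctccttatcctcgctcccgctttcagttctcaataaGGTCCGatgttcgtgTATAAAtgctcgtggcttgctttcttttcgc
H2AC21: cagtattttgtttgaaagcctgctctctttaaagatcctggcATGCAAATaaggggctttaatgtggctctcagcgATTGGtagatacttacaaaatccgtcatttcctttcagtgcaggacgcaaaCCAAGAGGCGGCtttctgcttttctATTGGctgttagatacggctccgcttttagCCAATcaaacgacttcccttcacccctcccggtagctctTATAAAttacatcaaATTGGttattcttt
H1-4: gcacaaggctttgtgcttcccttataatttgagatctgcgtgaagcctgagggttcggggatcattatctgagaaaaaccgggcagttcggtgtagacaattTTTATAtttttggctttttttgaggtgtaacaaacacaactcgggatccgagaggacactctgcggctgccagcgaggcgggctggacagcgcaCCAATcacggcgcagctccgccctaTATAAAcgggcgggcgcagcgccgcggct
H4C11: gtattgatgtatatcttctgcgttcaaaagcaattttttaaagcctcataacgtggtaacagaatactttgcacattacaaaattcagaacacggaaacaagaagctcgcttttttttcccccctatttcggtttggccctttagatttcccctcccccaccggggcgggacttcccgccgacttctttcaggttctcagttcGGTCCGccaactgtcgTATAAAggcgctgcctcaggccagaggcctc
H4C12: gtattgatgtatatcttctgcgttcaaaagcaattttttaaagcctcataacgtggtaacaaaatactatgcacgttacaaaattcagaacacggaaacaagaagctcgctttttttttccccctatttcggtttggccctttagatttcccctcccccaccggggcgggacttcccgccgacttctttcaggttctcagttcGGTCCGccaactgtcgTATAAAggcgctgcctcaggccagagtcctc
H2BC3: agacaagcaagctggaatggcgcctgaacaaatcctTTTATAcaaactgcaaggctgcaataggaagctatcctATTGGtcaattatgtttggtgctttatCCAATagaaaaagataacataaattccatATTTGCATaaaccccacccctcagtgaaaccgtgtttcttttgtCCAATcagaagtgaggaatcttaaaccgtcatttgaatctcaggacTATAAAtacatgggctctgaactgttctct
H4C7: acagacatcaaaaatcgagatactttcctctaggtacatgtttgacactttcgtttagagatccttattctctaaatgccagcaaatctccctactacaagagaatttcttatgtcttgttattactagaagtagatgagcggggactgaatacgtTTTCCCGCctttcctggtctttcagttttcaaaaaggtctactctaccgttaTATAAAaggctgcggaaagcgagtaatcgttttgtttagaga

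A promoter was matched for 64 of the 70 genes, and motifs were sought in the 300 bases from 250 before to 50 after the start. H2BC12L, H4C1, H4C3, H2AC12, H3C11 and H3C12 were not matched. The octamer was present in 11 of 16 H2A, 14 of 18 H2B and 1 of 11 H3 promoters (H3C4, whose start is that of H2AC7) and in 0 of 6 H1 and 0 of 13 H4 promoters, against 1.70% of 15812 promoters of all genes. CCAAT was present in every H1, H2A, H2B and H3 promoter and in 3 of 13 H4 promoters (H4C6, H4C9 and H4C13), against 36.3% of all promoters. The GGTCCG letters were present in 12 of 13 H4 promoters, the exception being H4C7, against 14.5% of all promoters. TATAAA was found in 65.6% of the histone promoters and in 9.64% of all promoters. The E2F letters occurred only at H4C7 among the 64, and the CTCF core only at H2AC21. Their shares among all promoters were 2.18% and 5.93%. Median AT content was 56.8% in the histone promoters and 37.3% in all promoters, and by class it ran from 50.5% in H1 to 58.7% in H3. These matches describe letters in the sequence and do not show binding.

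SATB1 lay at most of the histone genes. A gene was counted as having a peak when a peak overlapped the 2 kb on either side of either of its ends by at least 1 bp. SATB1 was present in both lists at 54 of 70 histone genes (77.1%), where 24.5% of all protein-coding genes had it. By class these were 4 of 6 H1, 15 of 17 H2A, 15 of 19 H2B, 9 of 13 H3 and 11 of 15 H4 genes. Neighbours often share a peak, and the 70 genes formed 36 loci whose windows touch, of which 29 had SATB1 in both lists. In the chromosome 6 cluster it was at 45 of 53 genes, which included each of the 21 genes from H2BC11 onwards, and in chromosome 1 q21 at 6 of 11. The q21 genes without it were H3C14, H3C15, H4C14, H4C15 and H2AC18. Each has a near-identical promoter copy in q21 (98.7% to 100%), so its reads may not be placed uniquely. The plot of shares by library shows the histone genes above all genes in each SATB1 list.

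**Figure D1:**
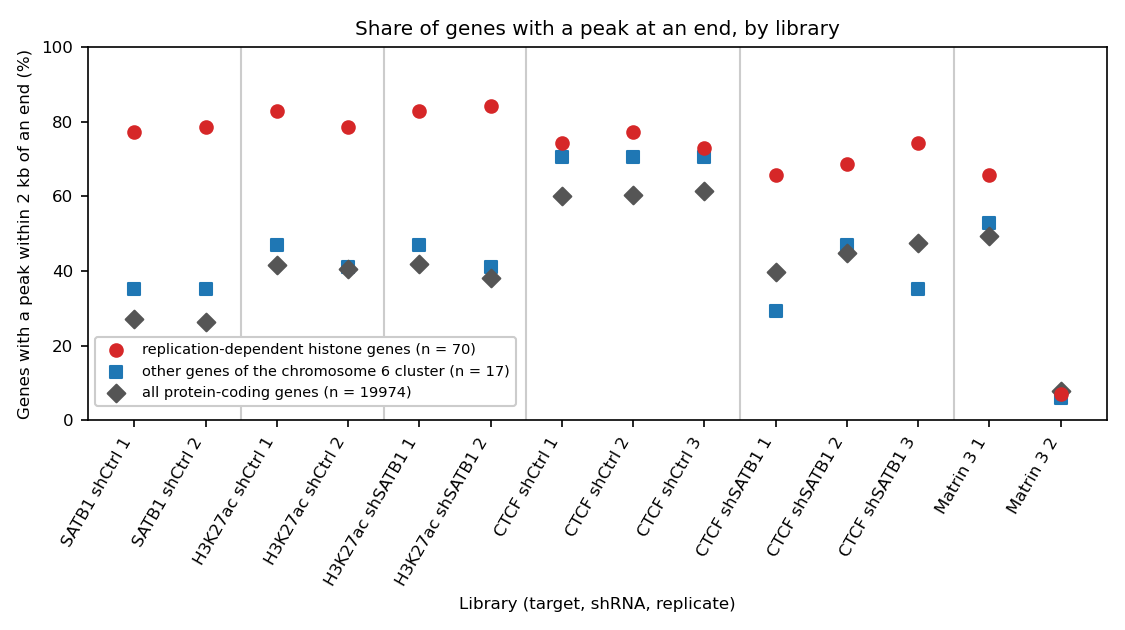
Each point is the share of genes (y axis, percent) with a peak within 2 kb of an end in 1 library (x axis), for the 70 histone genes, the 17 other protein-coding genes of the chromosome 6 cluster and all 19974 protein-coding genes. The histone genes stand above both other sets in the SATB1 and H3K27ac libraries, while in the CTCF shCtrl libraries they lie close to their 17 neighbours.

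The strength of the peaks was compared within each list by the percentile of maximum signal, the share of peaks in the list that were no higher. Over the histone genes with a peak, the median percentile of the highest SATB1 peak was 83.1 and 84.2 in the SATB1 lists, against 58.6 and 57.9 over all genes with a peak. A peak shared by neighbours counts once for each gene in these medians. Counted once each, the 37 and 36 SATB1 peaks at histone genes had lower median percentiles, 68.9 and 71.2. H2A and H2B genes had the highest class medians, 93.4 and 91.9 for both classes, and H4 genes the lowest, 65.7 and 61.7. The H2A and H2B values coincide because most of their peaks lie over divergent pairs. Of the 11 divergent H2A and H2B pairs with matched starts, which enclosed 193 to 247 bp, SATB1 was at 10, and only the testis pair H2AC1 and H2BC1 lacked it. H2BC12 and its neighbour H2AC12, whose start was not matched, were not counted. They had SATB1 at the 49.5 and 43.1 percentiles.

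By the mean percentile of the SATB1 lists, the highest SATB1 peak at a histone gene lay over the divergent pair H2BC4 and H2AC6 (97.3 and 97.8). It led in replicate 2, whereas in replicate 1 the peak shared by H1-4 and H2BC5 and the peak over H3C12 stood above it. The peak over H2BC4 and H2AC6 covered chr6:26122462-26125238 in replicate 1 and chr6:26122462-26125632 in replicate 2, and its maximum lay 27 and 20 bp inside H2BC4. The peak over H3C12, H2AC17 and H2BC17, at the end of the cluster, was at the 97.4 and 97.2 percentiles. The H2BC11 and H2AC11 pair, whose shared promoter is printed above, was at 96.7 and 97.0. H1-4, a linker histone gene, shared its peak with H2BC5 at 97.5 and 95.1. On chromosome 1 the peak over H2BC21, H2AC20 and H2AC21 was at 96.3 in both lists. The 10 genes of highest mean percentile thus fell at 5 peaks, and each of these peaks lies at 1 or more H2B genes.

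Among the linker histone genes, SATB1 was at H1-2 (71.6 and 73.8 percentiles), H1-3 (62.4 and 53.6), H1-4 and H1-5 (86.7 and 84.2), and in neither list at H1-1 and H1-6. The H1 genes thus ranged widely, with H1-4 well above H1-3 in both lists. H3 genes had medians of 83.1 and 89.2 and ranged from H3C7 (13.0 and 7.55) to H3C12. H4 genes ranged from 32.1 to 83.1 in replicate 1 and from 43.1 to 89.9 in replicate 2, with H4C1, which shares the peak of H3C1, highest in both. No H4 gene was among the 10 highest for SATB1.

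SATB1 peaks at histone genes mostly had their maxima near the starts, though in genes this short that does not part the start from the gene body. In 49 and 50 genes with a known start and a peak, the maximum lay a median of 190 and 237.5 bp from the start, within 500 bp at 33 and 31 of them, and no such count is given for all genes. These peaks had median widths of 2688 and 2743.5 bp per gene, with shared peaks repeated. Counted once each, the SATB1 peaks within 2 kb of a histone gene end had median widths of 2308 and 2225.5 bp. The medians over all peaks of the lists were 1241 and 1228.5 bp. At the start itself 68.8% and 70.3% of the 64 histone genes were covered, against 22.4% and 22.02% of all genes. At 2 kb downstream the shares were 26.6% and 25.0% against 2.27% and 2.11%, a distance at which a neighbouring histone gene can lie. Coverage of the histone genes reached further past the start than before it. At 1 kb it was 59.4% and 60.9% downstream and 43.75% and 37.5% upstream.

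**Figure D2:**
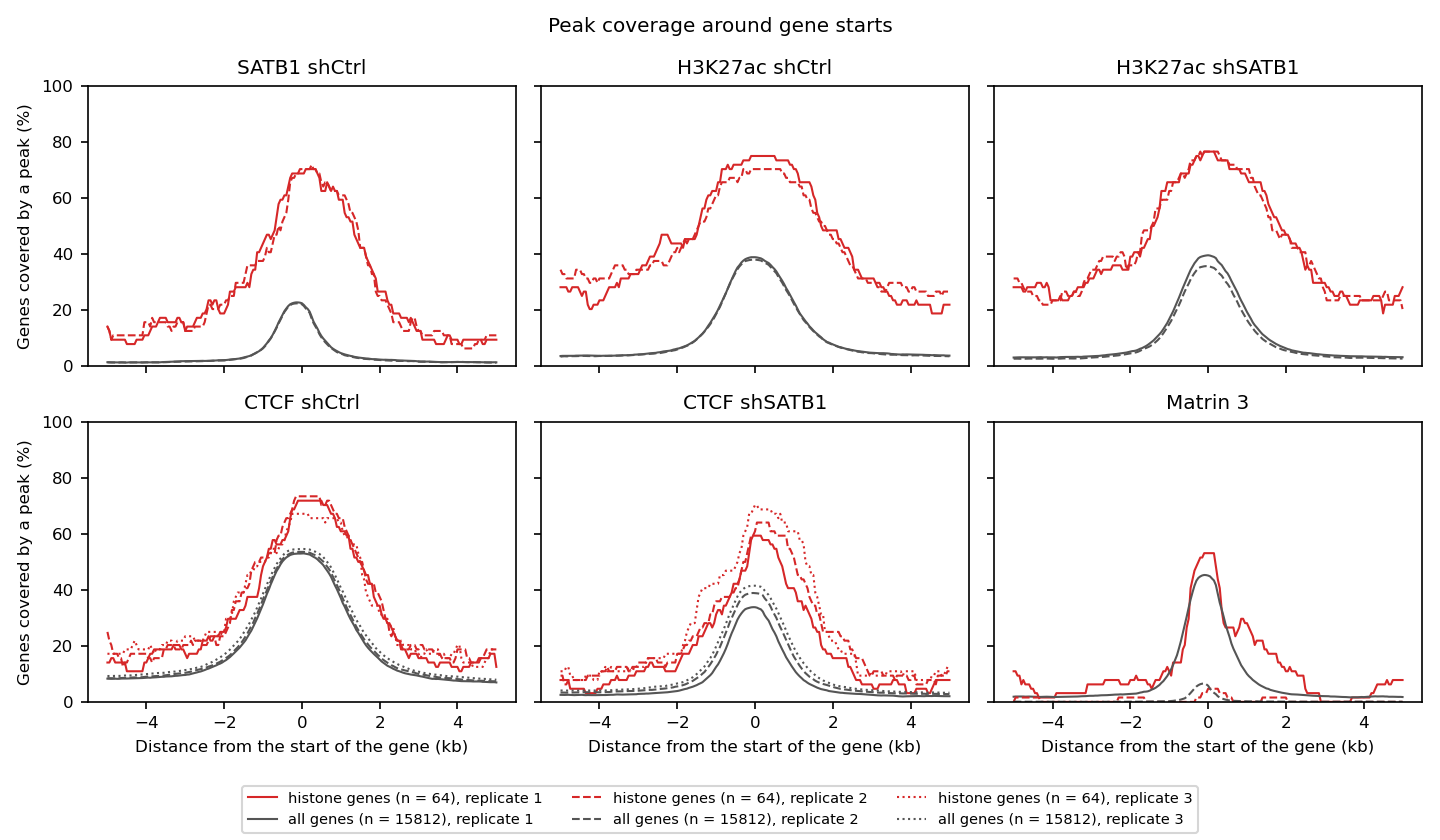
The y axis gives the share of genes covered by a peak and the x axis the distance from the gene's start in kb, for 64 histone genes (red) and 15812 genes (grey), with 1 line style per replicate. In the SATB1 panel the red lines reach 68.8% and 70.3% at the start, and in the Matrin 3 panel only replicate 1 rises clearly.

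H3K27ac was present in both shCtrl lists at 54 of 70 histone genes, where 38.8% of all genes had it, and in both shSATB1 lists at 57 of 70, where 36.9% of all genes had it. By mean percentile the highest H3K27ac in shCtrl was a broad peak that spanned 5 genes, H3C1, H4C1, H4C2, H3C2 and H2AC4, at the 91.3 and 92.1 percentiles. It was 14366 bp wide in replicate 1 and 13832 bp wide in replicate 2. In shSATB1 replicate 2 it was 13948 bp wide, and in shSATB1 replicate 1 the peak over H4C2, H3C2 and H2AC4 was 9099 bp wide and apart from that at H3C1. Next by mean were H2BC5 (92.1 and 90.4), which led in replicate 1, then the peak of H3C12, H2AC17 and H2BC17 (90.2 and 91.6) and H2BC11 (90.7 and 90.4). Over all histone genes with a peak the median percentile was 85.4 and 83.5 in shCtrl and 88.1 and 87.4 in shSATB1, against 59.9 and 58.9, and 61.6 and 59.4, over all genes.

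SATB1 and H3K27ac occurred together. Of the 54 histone genes with H3K27ac in both shCtrl lists, 50 had SATB1 in both lists (57.5% of all genes with that H3K27ac). Of the 11 with H3K27ac in neither, 0 had SATB1 in both (2.29% of all such genes). The 4 genes with SATB1 but without H3K27ac in both shCtrl lists were H2BC18, H3C13, H2BC8 and H2AC8, and each had H3K27ac in shCtrl replicate 1. The 4 with H3K27ac in both but without SATB1 in both were H2AC18, H4C15, H3C15 and H4C6. Of these, H2AC18, H4C15 and H3C15 have near-identical promoter copies, whose reads may not be placed uniquely.

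The map of percentiles shows the members that stand apart. No list had a peak at 8 genes, H1-1, H2AC1, H2BC1, H2BC6, H3C6, H4C7, H4C14 and H2BC12L, where 34.7% of all genes had none. The promoter of H4C14 is identical to that of H4C15, so its reads may not be placed uniquely. H2AC1 and H2BC1 encode histones of the testis. H1-6, the testis linker histone, had a peak in H3K27ac shSATB1 replicate 2 alone. H2BC3 and H3C3 had a peak in Matrin 3 replicate 2 alone. The H2BC3 promoter carries the TATA box, the CCAAT letters and the octamer, as do promoters of H2B genes with SATB1 such as H2BC11.

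**Figure D3:**
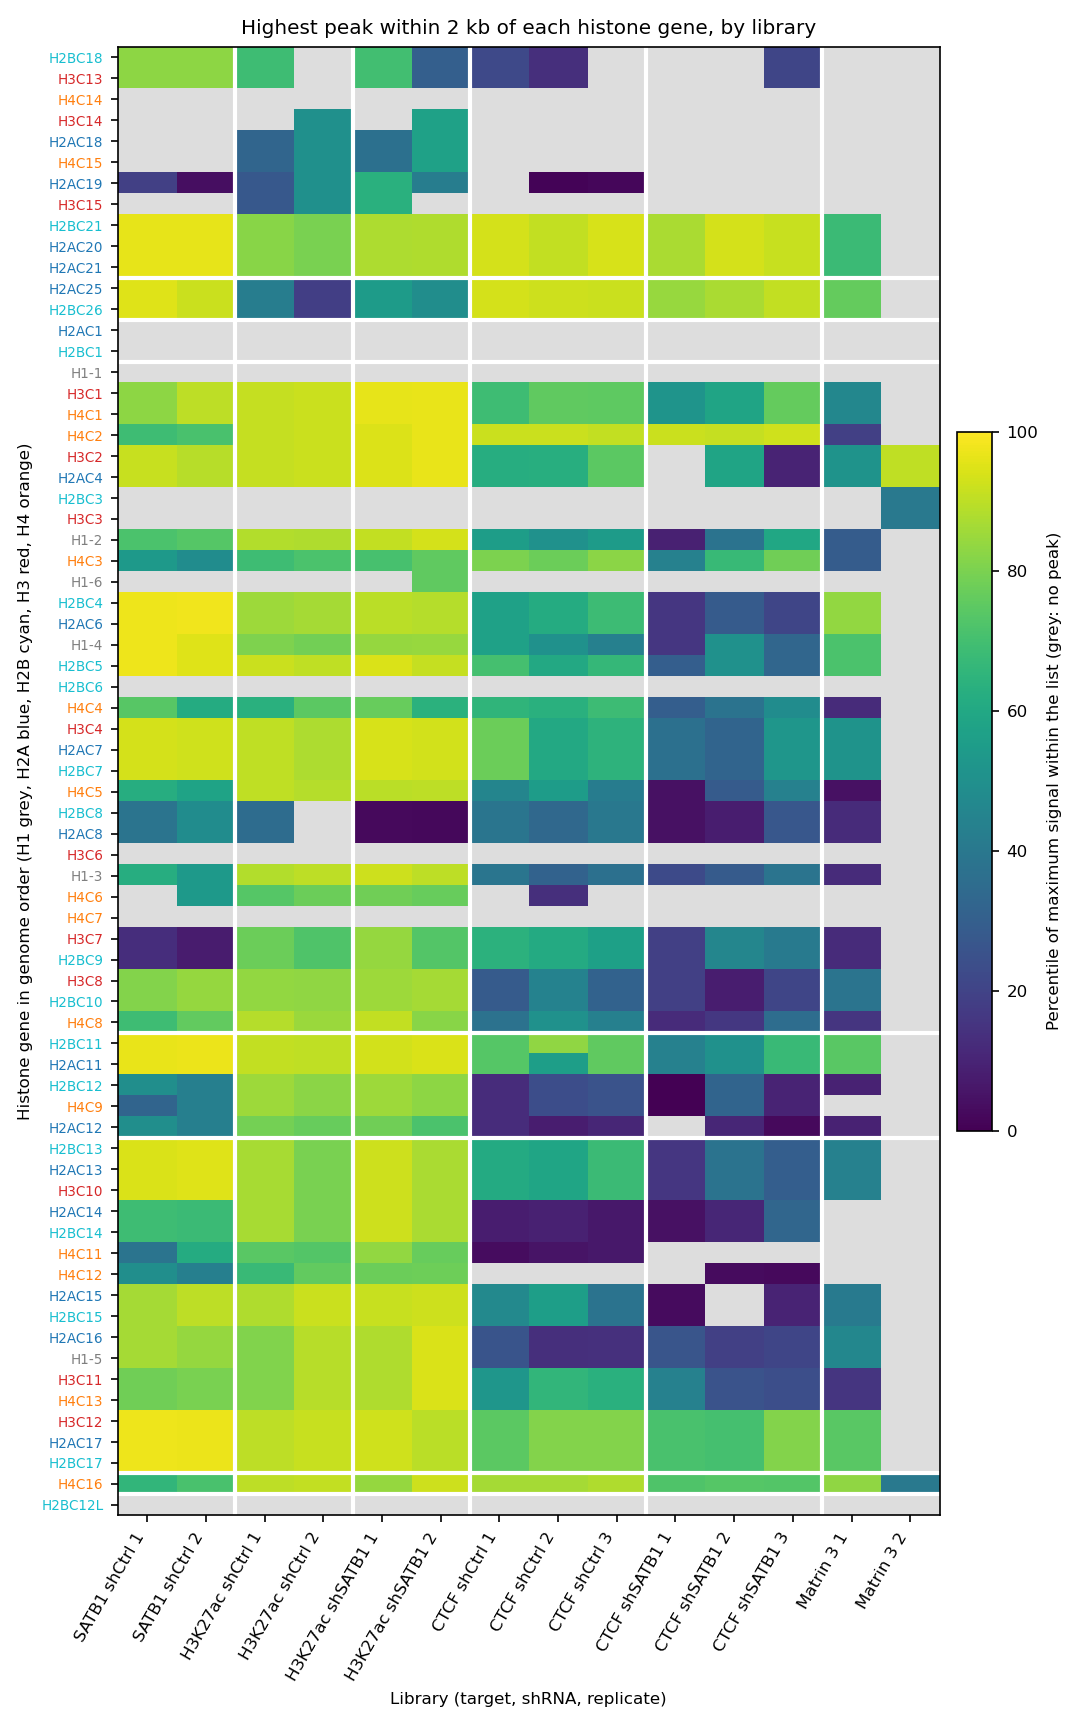
Rows are the 70 histone genes in genome order, columns the 14 libraries, and colour the percentile of maximum signal of the highest peak within 2 kb (grey, no peak); white lines part gene stretches and groups. The SATB1 columns are bright over H2BC4 and H2AC6 and over H2BC11 and H2AC11, and 8 rows are grey throughout.

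CTCF was present at an end in all shCtrl lists at 50 of 70 histone genes (71.4%), where 58% of all genes had it. In rank it stood below SATB1: the median CTCF percentile over histone genes with a peak was 61.0, 59.6 and 64.5 in shCtrl, below the 74.5, 74.4 and 75.3 over all genes. With all 6 CTCF lists shortened to the 14695 highest peaks, 31, 34 and 32 histone genes had CTCF in shCtrl and 46, 39 and 34 in shSATB1, and 43.2%, 43.7% and 44.2% of all genes in shCtrl against 39.7%, 40.3% and 40.0% in shSATB1. At this length 29 histone genes had CTCF in all shCtrl lists, where 40.1% of all genes did. CTCF, SATB1 and H3K27ac were all called in shCtrl at 48 histone genes, where 21.9% of all genes had all of them. Of the 54 histone genes with H3K27ac in both shCtrl lists, 48 had CTCF in all shCtrl lists, where 95.8% of all such genes did. CTCF in all shCtrl lists without SATB1 in both was found at 0 histone genes, whereas 34.1% of all genes had that combination.

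A few histone genes did carry CTCF of high rank. The peak over H2BC21, H2AC20 and H2AC21 was at the 93.7, 91.0 and 94.0 percentiles in shCtrl and at 87.4, 93.4 and 91.6 in shSATB1. In shCtrl its maximum lay upstream of the start of H2AC21, at -513, -516 and -513 bp, outside the promoter stretch that holds the CTCF core letters. H2AC25 and H2BC26 shared a peak at 93.6, 92.3 and 92.0 in shCtrl and 84.7, 87.4 and 90.7 in shSATB1. At H4C2 CTCF was at 92.1, 92.1 and 90.9 in shCtrl and 92.0, 91.0 and 92.8 in shSATB1. Its maximum lay 770 to 848 bp past the start in all 6 lists, beyond the 3′ end of a gene 388 bp long. SATB1 at H4C2 was lower, at 68.9 and 71.2. H4C16, the H4 gene on chromosome 12, was at 86.7, 86.7 and 88.1 in shCtrl and 72.5, 73.6 and 73.3 in shSATB1, and it was the only member with a peak in all 14 lists. H4C3 (80.5, 77.5 and 82.5 in shCtrl) and the peak of H3C12 and H2AC17 (74.8, 81.3 and 81.4) followed.

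CTCF was called at most of the histone genes in shSATB1 too, mostly at low ranks. The median percentile over histone genes with a peak was 26.3, 38.1 and 33.01 in the shSATB1 lists, against 66.0, 66.1 and 68.7 over all genes. With the full lists the histone gene medians lie below those of all 3 shCtrl lists, and the shSATB1 lists are shorter and reach lower signals. With all CTCF lists shortened to 14695 peaks, the histone gene medians overlapped between the arms. They were 44.2, 21.6 and 44.1 in shCtrl and 26.3, 34.2 and 34.6 in shSATB1. Over all genes they were 66.3, 65.2 and 65.5 in shCtrl and 66.0, 64.3 and 65.3 in shSATB1. CTCF was in all shSATB1 lists at 44 of 70, where 37.9% of all genes had it, and in all 6 CTCF lists at 44. Of the 50 histone genes with CTCF in all shCtrl lists, 1 had it in no shSATB1 list, where 14.8% of all genes with CTCF in all shCtrl lists, and 8.58% of all genes, lost it in this way. No histone gene had CTCF in all shSATB1 lists and no shCtrl list, and neither did any of the 19974 genes (0%). Without shCtrl replicate 1 the count of losses was 2 (9.8% of all genes), and without shSATB1 replicate 1 the count of gains was 1 (0.015%).

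The loss was at H4C11. CTCF there ranked at the 3.19, 5.44 and 6.32 percentiles in shCtrl, among the lowest peaks of the lists, and was not called in shSATB1. The covered length, that is, the bases of the gene and 2 kb on either side that lie in peaks, was 1697, 1756 and 2128 bp in shCtrl and 0 bp in each shSATB1 library. H4C11 was picked as a gene called in all shCtrl and no shSATB1 list, so its arms could not overlap and its p was fixed by that pick. It was 0.1, the smallest that 3 against 3 allows (exact permutation test, two-sided, Benjamini-Hochberg adjusted p = 0.122 over 14173 genes). The test therefore adds nothing to the call. H4C12, a near-copy of the gene, showed the reverse, with no CTCF in shCtrl and peaks at the 2.83 and 2.56 percentiles in shSATB1 replicates 2 and 3. The promoters of H4C11 and H4C12 are 98.3% identical over 300 bp. Reads from such copies may not be placed uniquely, so that CTCF at H4C11 and at H4C12 cannot be told apart. The same holds for H4C14 and H4C15 (100% identical promoters), H2AC18 and H2AC19 (99.7%) and H3C14 and H3C15 (98.7%), and without these 8 genes the count of losses was 0.

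CTCF covered less of the histone genes in the shSATB1 libraries. Over the merged windows of all 70 genes it was 103.6 ± 4.30 kb in shCtrl (SD, n = 3) and 73.8 ± 11.9 kb in shSATB1 (n = 3), a difference of -28.8%, where the total length of CTCF peaks in the genome differed by -65.4%. The arms did not overlap. Within 2 kb of the ends, summed over genes, the histone genes went from 170.3 ± 5.53 to 128.9 ± 19.5 kb (-24.3%), all genes with CTCF in all shCtrl lists differed by -50.1%, and the 17 other genes of the chromosome 6 cluster by -62.8%. The difference between these percentages was not tested. The windows of the chromosome 6 cluster went from 85.8 ± 3.46 to 61.1 ± 10.2 kb (-28.8%) and those of chromosome 1 q21 from 9.94 ± 1.49 to 5.68 ± 1.04 kb (-42.8%), each without overlap of the arms. At H2AC25 and H2BC26 the arms overlapped (4.59 ± 0.530 and 4.13 ± 0.915 kb). List length and lowest called signal moved with these values, and their part in the difference was not tested.

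Gene by gene, every shSATB1 library was below every shCtrl library at 22 of 70 histone genes, where 58% of all genes behaved in this way. All 22 were among the 50 with CTCF in all shCtrl lists, and of all such genes 86.5% behaved in this way. Counting only the bases within 2 kb of the ends gave 22 of 50 again, with 79.9% of all such genes. Covered length has a ceiling where peaks fill the window, as at H2AC17, H2BC17 and H2AC20 in every shCtrl library (4487, 4467 and 4494 bp). A shSATB1 library that also fills it blocks the call, as replicate 3 did at H2AC17 and H2BC17 and replicate 2 at H2AC20. How far this lowered the count of histone genes was not tested. Every shSATB1 library was above every shCtrl library at 0 histone genes and at 0.015% of all genes, and at 0 of the 50 where 0.0259% of such genes did (0.0173% within 2 kb of the ends). The 22 genes were 1 H1, 4 H2A, 6 H2B, 5 H3 and 6 H4 genes. Having been picked by this lack of overlap, each necessarily reached the smallest possible p (0.1, exact permutation test), with an adjusted p of 0.122, so no gene could pass a conventional threshold.

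H3C8, an H3 gene, had covered lengths of 4496, 3973 and 3966 bp in shCtrl and 1976, 3167 and 3623 bp in shSATB1. At H4C8 they were 2926, 3043 and 2875 bp against 1469, 1642 and 2071 bp. At H1-2, a linker histone gene, they were 3363, 2691 and 3184 bp against 1661, 1916 and 2122 bp. All of these show the shSATB1 libraries below the lowest shCtrl library, and in each shSATB1 replicate 3 is the longest of its arm. The pair H2AC15 and H2BC15 shows how widely the shSATB1 libraries differed among themselves, with 1244, 0 and 3181 bp at H2BC15 against 2282, 3166 and 2971 bp in shCtrl. At the strong CTCF peak of H4C2 the values were 3136, 3154 and 3065 bp against 1953, 2143 and 3115 bp, with overlap. Without shSATB1 replicate 3 the count of genes with lower covered length was 35 rather than 22, and 62.4% of all genes. With all CTCF lists shortened to the same number of peaks, the count was 12 of 70, and 34.4% of all genes.

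**Figure D4:**
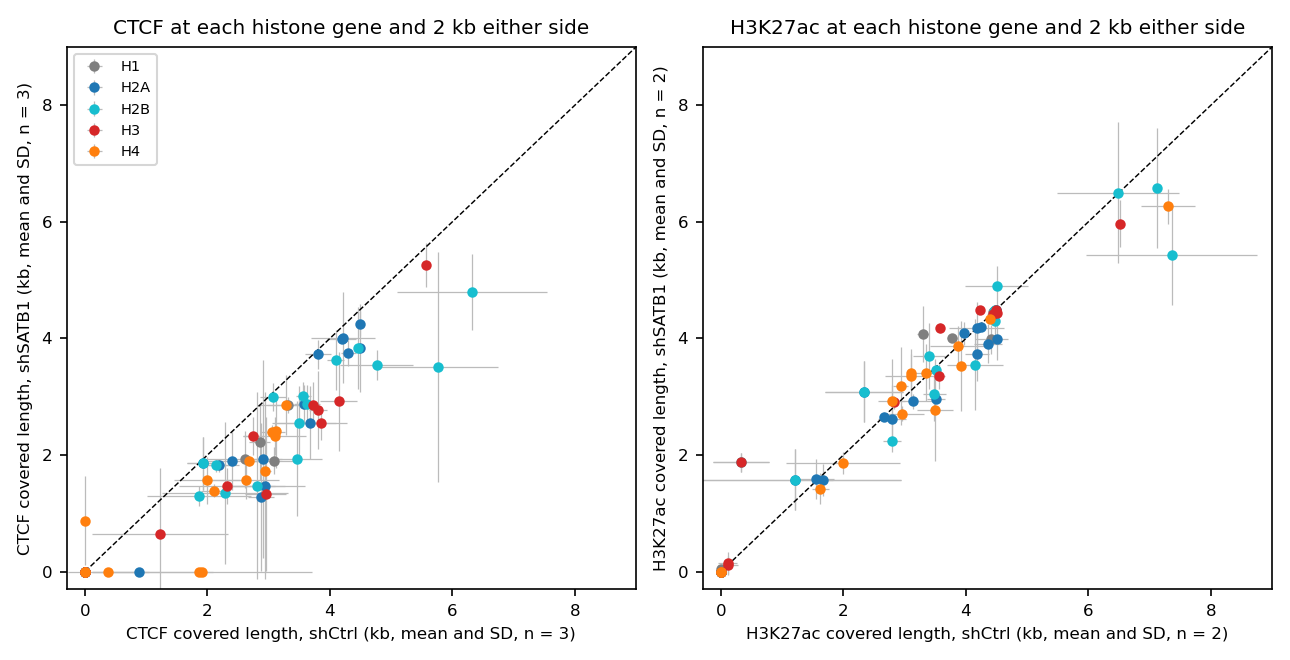
Each point is a histone gene, with its mean covered length in shCtrl on the x axis and in shSATB1 on the y axis (kb, bars are SD), for CTCF (left, n = 3 per arm) and H3K27ac (right, n = 2 per arm); the dashed line marks equality. The CTCF points lie mostly below the line, and the H3K27ac points lie on both sides of it.

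Summed over all the histone genes, H3K27ac lengths overlapped between the arms, and in chromosome 1 q21 they did not. Over the merged windows it was 133.5 ± 5.04 kb in shCtrl (SD, n = 2) and 131.2 ± 2.38 kb in shSATB1 (n = 2), a difference of -1.72%. The windows of the chromosome 6 cluster went from 115.3 ± 4.52 to 111.5 ± 3.01 kb (-3.30%), with overlap. Those of chromosome 1 q21 went from 12.9 ± 0.467 to 13.9 ± 0.00636 kb (7.87%), with both shSATB1 libraries above both shCtrl libraries. Within q21, the peak shared by H2BC18 and H3C13 alone went from a mean of 328 bp to 1872 bp. That peak was not called in shCtrl replicate 2, so the q21 difference does not describe the cluster as a whole. These sums carry no test. The total length of H3K27ac peaks in the genome differed by -17.2%, and the weakest called peak had a total signal of 6653 and 6836 in shCtrl and 4405 and 4476 in shSATB1. No histone gene had H3K27ac in both libraries of shCtrl and neither of shSATB1 (0.846% of all genes did), and none had the reverse (0.501%). Covered length was lower in both shSATB1 libraries than in either shCtrl library at 8 histone genes (19.5% of all genes), and higher at 6 (3.78%). Among the 54 with H3K27ac in both shCtrl lists the counts were 8 (40.9% of such genes) and 4 (6.17%), and within 2 kb of the ends 6 (36.2%) and 4 (6.15%). At H2AC17, H2BC17, H2BC11, H3C10 and H2AC20, H3K27ac filled the whole window in every library, so neither call could be made. With 2 against 2 the smallest p is 0.333 (exact permutation test, two-sided; adjusted p = 0.753 over 10525 genes), so no gene could pass.

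The 8 genes with less H3K27ac were H1-4, H2AC6, H2AC7, H2AC14, H2BC4, H2BC14, H3C4 and H4C15, and the 6 with more were H1-2, H1-3, H2BC18, H3C8, H3C12 and H3C13. H2BC4, under the SATB1 peak of highest mean percentile, had 8350 and 6374 bp in shCtrl and 6054 and 4823 bp in shSATB1. H3C12 had 3582 and 3586 bp in shCtrl and 4117 and 4245 bp in shSATB1, so the spread within an arm was small there. H2BC18 and H3C13 share their H3K27ac peak, which covered 656 and 0 bp in shCtrl and 1985 and 1759 bp in shSATB1. The gene model of H4C15 (16753 bp) takes in H2AC19 and H3C15, and that of H2BC18 is 29682 bp long. Each count rests on few libraries. Genes with less H3K27ac numbered 20 of 70 without shCtrl replicate 2 (29% of all genes), 24 without shSATB1 replicate 1 (30.2%) and 19 without shSATB1 replicate 2 (24.1%). The share of histone genes with less H3K27ac, below that of all genes with every library in, was thus close to or above it in these comparisons. It stayed below without shCtrl replicate 1, at 12 of 70 against 27.3% of all genes. Compared only between same-numbered libraries, 14 of 70 had less, against 24.3% of all genes. Genes with more numbered 13 when shCtrl replicate 1 was left out (8.64% of all genes) and 9 when shCtrl replicate 2 was (7.88%). They numbered 18 when shSATB1 replicate 1 was left out (7.28%) and 14 when shSATB1 replicate 2 was (12.3%). Gains of a peak numbered 4 when shCtrl replicate 1 was left out (1.33% of all genes). When shSATB1 replicate 1 was left out, gains numbered 1 (0.916%) and losses 1 (3.17%).

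**Figure D5:**
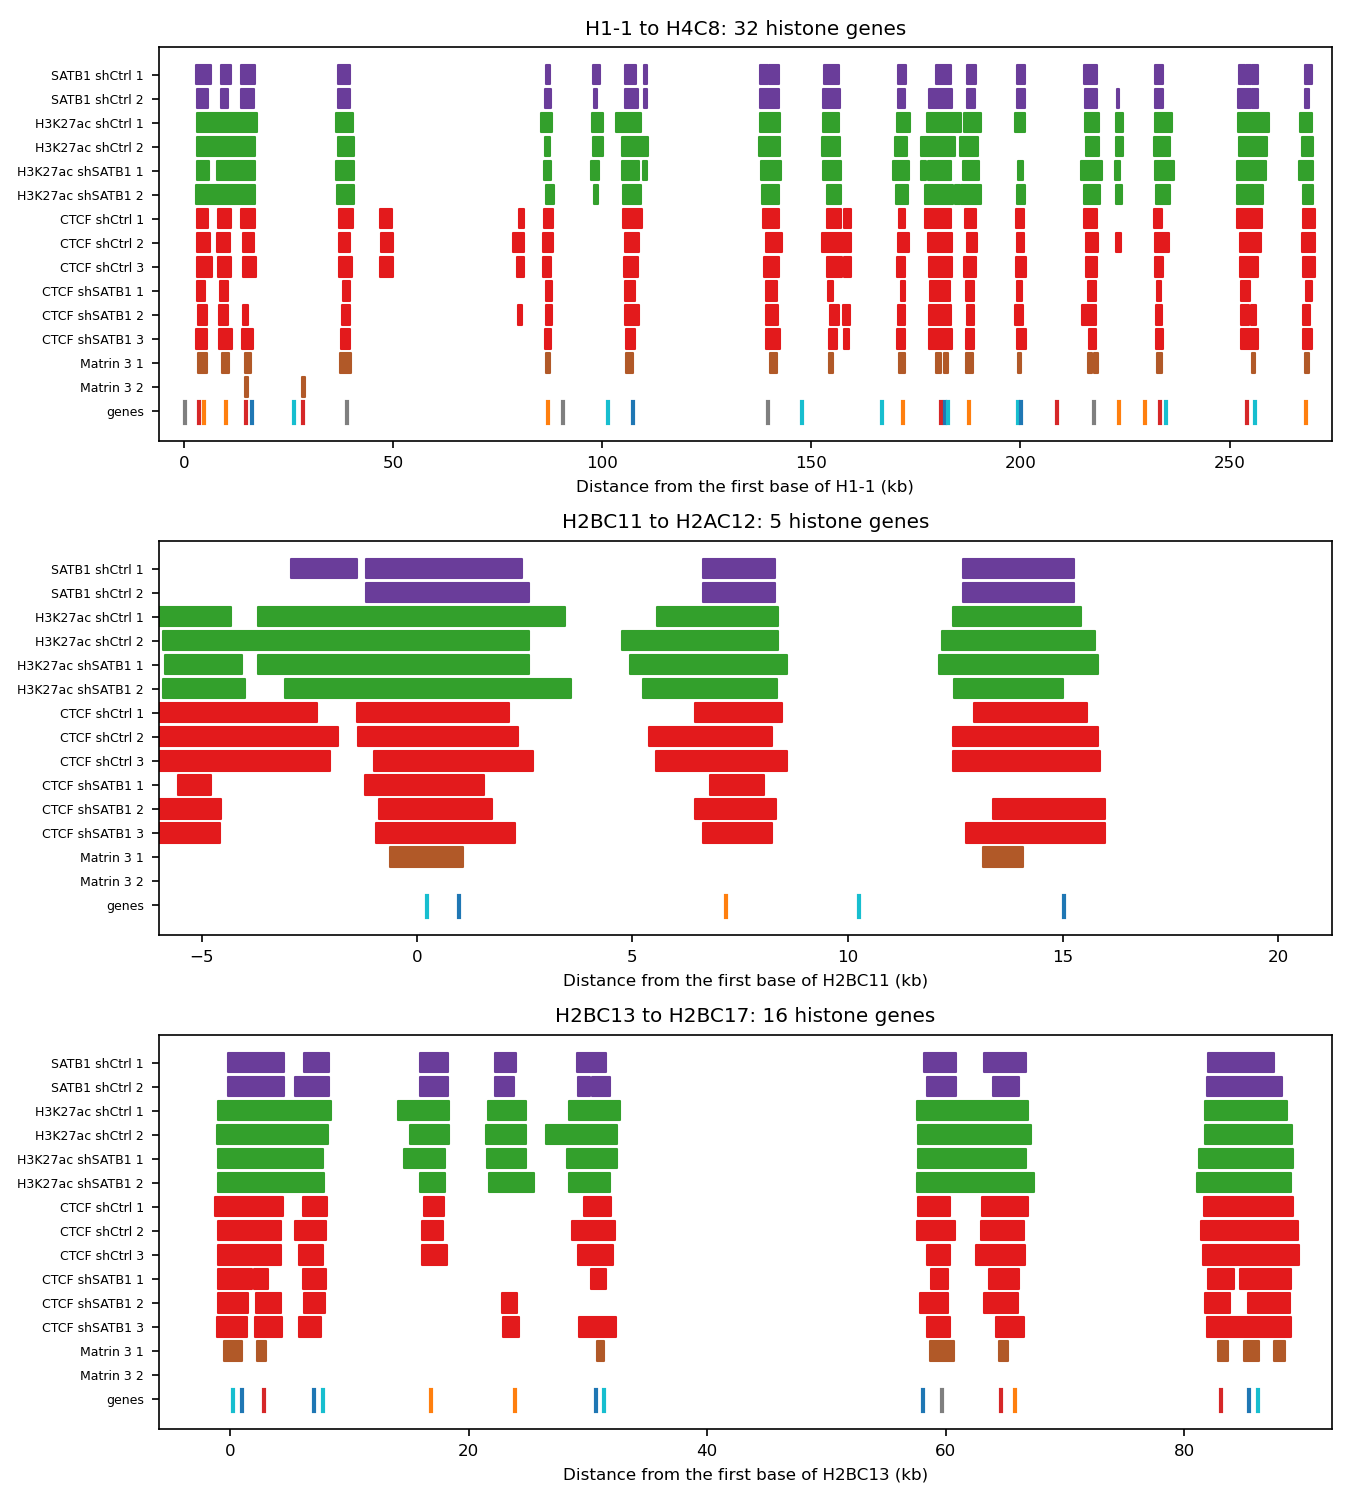
Bars are the peaks of each of the 14 libraries (rows) along the 3 stretches of the chromosome 6 cluster, with distance in kb from the first base of the first gene on the x axis; ticks in the bottom row are histone genes coloured by class (H1 grey, H2A blue, H2B cyan, H3 red, H4 orange). The H3K27ac peak at the left end of the top panel spans H3C1 to H2AC4 in both shCtrl libraries, and each of the 16 genes of the bottom panel lies within 2 kb of a SATB1 peak.

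The Matrin 3 libraries differed from each other. In replicate 1 it was at 46 of 70 histone genes, where 49.3% of all genes had it, and in replicate 2 at 5, where 7.92% of all genes had it. It was in both at 3 (H3C2, H2AC4 and H4C16), where 7.85% of all genes had it. In replicate 1 the median percentile at histone genes was 46.4, below the 73.4 over all genes. The highest were H2BC4 and H2AC6 at 84.0, which also had the highest mean SATB1 percentile, and H4C16 at 83.5.

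Other protein-coding genes of the chromosome 6 cluster numbered 17. SATB1 was in both lists at 6 of them, against 45 of the 53 histone genes there: BTN2A1, BTN3A2 and BTN3A3 of the butyrophilin family, HMGN4, a nucleosome-binding protein, ABT1 and ZNF184. H3K27ac was in both shCtrl lists at 7 of the 17 and CTCF in all shCtrl lists at 12. Of all genes, 24.5% had SATB1 in both lists, 38.8% had that H3K27ac and 58% had that CTCF. BTN2A2, BTN3A1 and BTN3A3 had CTCF in all shCtrl lists and in no shSATB1 list, as did 8.58% of all genes. Histone genes accounted for 32 of the 62 SATB1 peaks of the cluster in replicate 1 and for 31 of 58 in replicate 2.

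The genes that serve the histone locus body and histone mRNA processing were compared as a list of 34. SATB1 was in both lists at 19 of them, H3K27ac in both shCtrl lists at 29 and CTCF in all shCtrl lists at 33. The shares over all genes were 24.5%, 38.8% and 58%. CDK2, the kinase that with cyclin E activates NPAT, had SATB1 at the 98.6 and 98.9 percentiles. CASP8AP2 (97.3 and 97.0), a protein of the histone locus body, NPAT (93.4 and 92.9), its organiser, and POU2F1 (95.1 and 92.9), which binds the octamer, were also high. SNRPD3, a core protein of small nuclear ribonucleoproteins, and NCBP1, of the cap-binding complex, followed at mean percentiles of 86.6 and 87.5. SLBP, which binds the stem-loop of histone mRNA, had no SATB1 peak in either list. SNRPF was the 1 gene of this list with CTCF in all shCtrl lists and no shSATB1 list, where 8.58% of all genes lost it in this way.

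Histone genes listed as replication-independent had SATB1 in both lists at 6 of 24, among them H2AZ1, H2AX and H3-3B. Of all genes, 24.5% had it. H2AZ1 was at the 94.1 percentile in both, and H2AX, the variant phosphorylated at DNA breaks, was at 94.5 and 91.3. H3K27ac was in both shCtrl lists at 7 of the 24, where 38.8% of all genes had it. The 24 were thus not limited to genes with this mark. Their share with SATB1 therefore does not describe variants supplied through the cell cycle alone. H1-8 and H2BK1 had CTCF in all shCtrl lists and in no shSATB1 list, as did 8.58% of all genes. Histone chaperones and assembly factors had SATB1 in both lists at 15 of 30, where 24.5% of all genes had it. RBBP4, ASF1A and ANP32E were highest (mean percentiles 94.2, 94.1 and 90.8). CTCF was in all shCtrl lists at 27 of the 30. Of these 27, UBN2, CABIN1, MMS22L, SET and HAT1 had it in no shSATB1 list. The same held for 14.8% of all genes with CTCF in all shCtrl lists, and for 8.58% of all genes. IPO4 had H3K27ac in both shCtrl lists and neither shSATB1 list, as did 0.846% of all genes.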

How the data were processed

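The authors deposited 1 peak list per library without a header line, with each peak's position and, in the column order SEACR writes, total signal and maximum signal. This deposited signal is in whole numbers with no scaling recorded, so it ranked peaks within a list only. The submitters' processing notes name SEACR, Bowtie2, Trim Galore, SAMtools and deepTools for every library, MACS2 for the libraries other than Matrin 3, and GRCh38. Tool versions, alignment filters and controls are not given in the sources used here. Of 273747 peaks, the 405 outside chromosomes 1 to 22 and X were left out. Gene positions and promoters came from RefSeq GRCh38.p14, and positions are 1-based. Percentiles, covered lengths and exact permutation tests used Python 3.11.15, numpy 2.4.6, pandas 2.3.3 and scipy 1.17.1, with figures by matplotlib 3.10.9. The counting was tested on simulated data. The members, gene lists and tests were chosen with earlier results of these data known. Named genes were the 10 highest by percentile for SATB1, CTCF and H3K27ac in shCtrl, those lost or gained, those without peaks, those outside the clusters, and up to 6 per other list; further names were picked after seeing their values. The alternatives comprised other windows, overlaps and list lengths, peak maxima, left-out libraries, a replicate block, windows at gene ends alone, and omission of genes with near-identical promoters, the last 2 added after seeing the data.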

Additional observations from a re-analysis of the deposited data

How the results depend on the processing

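Of the recomputed counts of histone genes, 100 stayed within 1.5 times the count reported and 29 did not. With lists of equal length, CTCF in all shCtrl lists was at 29 genes (40.1% of all genes) and Matrin 3 in both at 0 (6.12%). CTCF losses were then at 0 (1.63%) and CTCF gains at 1 (0.295%). CTCF covered length was lower at 12 (34.4% of all genes) and higher at 1 (0.486%). With windows of 5 kb, CTCF covered length was lower at 36 (62.1% of all genes), H3K27ac covered length higher at 14 (3.91%) and H3K27ac gained at 1 (0.521%). With windows of 1 kb, H3K27ac covered length was lower at 5 (18.8% of all genes) and higher at 3 (3.95%). With the peak maximum in the window, H3K27ac was gained at 2 (0.631% of all genes). Without the 8 genes with near-identical promoters, CTCF losses were 0. Leaving out each library in turn gave ranges of 54 to 55 (SATB1), 50 to 52 (CTCF in shCtrl), 55 to 58 (H3K27ac in shCtrl), 5 to 46 (Matrin 3), 1 to 2 and 0 to 1 (CTCF losses and gains), 0 to 1 and 0 to 4 (H3K27ac losses and gains), 22 to 35 and 0 to 1 (CTCF covered length lower and higher) and 12 to 24 and 9 to 18 (the same for H3K27ac). As a replicate block, comparing only same-numbered libraries, covered length was lower in every pair at 32 genes for CTCF (62.7% of all genes) and at 14 for H3K27ac (24.3%). Whether the replicate numbers pair the libraries cannot be told from these lists. Same-numbered CTCF libraries had correlations of their deviations of 0.209, 0.0161 and 0.255 over 14173 genes. Differently numbered CTCF libraries ran from -0.267 to 0.0808. For H3K27ac the values were 0.110 and -0.110, which must mirror each other with 2 libraries per arm. The cause of these changes was not tested. Neither depth nor read placement could be read from peak lists, and absence of a peak does not show absence of the protein.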

Other observations

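The chromosome 6 cluster also holds 100 tRNA genes, of which 1 lay within 2 kb of a histone gene end. A SATB1 peak overlapped 500 bp on either side of 31 and 26 of them in the SATB1 lists. Outside the cluster the counts were 122 and 117 of 343 tRNA genes, or 35.6% and 34.1%. H3K27ac was at 9 and 11 of the 100 in shCtrl and at 9 and 13 in shSATB1, against 28.3% and 26.5%, and 26.5% and 22.7%, of tRNA genes elsewhere. CTCF was at 32, 30 and 30 of the 100 in shCtrl and at 17, 17 and 20 in shSATB1, against 41.98%, 41.98% and 42.6%, and 35.6%, 37.9% and 38.5%, elsewhere. SATB1 peaks of the cluster at tRNA genes and away from histone genes numbered 20 and 17, with median percentiles of 58.6 and 57.9, and median widths of 1242 and 1544 bp against 2310 and 2342 bp for those at histone genes. These values carry no test, and reads from tRNA genes of near-identical sequence may not be placed uniquely.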
